A study of Arabidopsis thaliana with 24 samples.

Results

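The ribosome biogenesis genes of Arabidopsis thaliana were taken here as the genes of the deposited table whose KEGG pathway annotation includes ribosome biogenesis in eukaryotes and that lie on the nuclear chromosomes. They are 107 of the 32833 genes in the table, and 94 of them had enough counts to be tested. Transcript levels were measured by paired-end sequencing of poly(A) RNA, copied with random hexamers, from whole seedlings on MS medium. By its title the series concerns UAP1, a splicing factor, in cold stress. The genotypes were wild type (WT, Col-0) and the lines uap1-1 and uap1-2, each labelled as a homozygous T-DNA insertion mutant in the Col-0 background and each a single insertion line. Seedlings of each genotype were either kept under normal conditions throughout or placed at 4 °C for 24 h, and each of the 6 groups had 4 libraries that the labels call independent biological replicates. Seedling age is stated in conflicting ways, as 11 days before the cold and 12 days at harvest in the design text, and as 10 days before the cold in the extraction protocol. No gene in the table carries the name UAP1, so the mutated gene was not checked.

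Ribosome biogenesis starts in the nucleolus, where RNA polymerase I makes the long precursor of the ribosomal RNAs. Box C/D and box H/ACA ribonucleoproteins guide methyl groups and pseudouridines onto this precursor, the UTP complexes and the U3 ribonucleoprotein build the first large particle (90S) around it, and nucleases cut it into the parts of the small (40S) and large (60S) subunits. GTPases, kinases and adaptors then release the assembly factors and carry the subunits through the nuclear pore. Most roles below were worked out in budding yeast and are given to the Arabidopsis genes through their KEGG orthology (KO) number or their deposited description. In plants this machinery has been tied to growth and, for several factors, to tolerance of low temperature.

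Library totals ran from 19289385 to 25501547 counts. Libraries were scaled by TMM, which set factors of 0.81 to 1.24, and levels are given as TMM-scaled CPM, counts scaled to a common library size. The tests were edgeR's quasi-likelihood tests on the counts, with Benjamini-Hochberg adjustment over all 21428 genes tested; "rose" and "fell" below mean an adjusted p under 0.05. Fold changes are log2 values with their standard error (SE). In whole seedlings, fewer cells of a type and less RNA per cell cannot be told apart.

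After 24 h at 4 °C most of the ribosome biogenesis genes stood higher than in control seedlings. In WT 66 of the 94 tested genes rose and 3 fell, where 25.8% of all genes tested rose and 28.4% fell. In uap1-1 50 rose and 6 fell, beside 26.7% and 29.2% of all genes, and in uap1-2 63 rose and 3 fell, beside 26.5% and 26% of all genes. The median log2 fold change of the 94 genes was 1.04 in WT, 0.60 in uap1-1 and 0.95 in uap1-2, while that of all genes tested was -0.06, -0.07 and -0.01. At least 2-fold rises were seen for 48 genes in WT, 33 in uap1-1 and 45 in uap1-2. The share of all genes with rises of that size is not given here. All 4 cold libraries lay above all 4 control libraries for 53 of the 94 genes in WT, 49 in uap1-1 and 61 in uap1-2, against 21.5%, 23.3% and 24.4% of all genes tested. Scaling to plain library totals gave 53 higher and 5 lower in WT, beside 19.2% and 35% of all genes. It gave 31 and 11 in uap1-1, beside 15.8% and 45.5%, and 49 and 5 in uap1-2, beside 19.6% and 32.7%. With limma on log2(FPKM + 1), 54 were higher and 5 lower in WT (19.7% and 34.1% of all genes), 31 and 11 in uap1-1 (16% and 46%), and 51 and 5 in uap1-2 (19.7% and 32.5%). With library totals the median of all genes moved to -0.27, -0.50 and -0.20 and that of the 94 genes to 0.80, 0.17 and 0.75, so the distance between them was 1.07, 0.67 and 0.96.

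The 3 cold comparisons use separate sets of libraries. Of the 94 genes, 46 rose in all 3 genotypes, 19 in 2 of them and 3 in 1, and 20 passed the test in none. AT3G26480, AT2G25420 and CKA1 fell in all 3, and AT1G10300, SDN1 and SDN2 fell in uap1-1 and did not pass in the other genotypes. No gene passed the test in opposite directions in different genotypes. This overlap was not counted for all genes tested. In single genotypes 25.8% of all genes rose in WT, 26.7% in uap1-1 and 26.5% in uap1-2. At most 25.8% can therefore have risen in all 3. Rises and falls together made up 54.2% of all genes in WT, 55.9% in uap1-1 and 52.5% in uap1-2.

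Summed over the 107 genes, the share of a library's counts was 0.342% ± 0.0688 (SD, n = 4) in WT control and 0.674% ± 0.122 (SD, n = 4) in WT cold. It was 0.415% ± 0.056 and 0.566% ± 0.0637 in uap1-1, and 0.392% ± 0.0676 and 0.688% ± 0.041 in uap1-2 (SD, n = 4 each). In each genotype the lowest cold library lay above the highest control library: 0.552% against 0.421% in WT, 0.512% against 0.46% in uap1-1 and 0.631% against 0.449% in uap1-2.

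**Figure D1:**
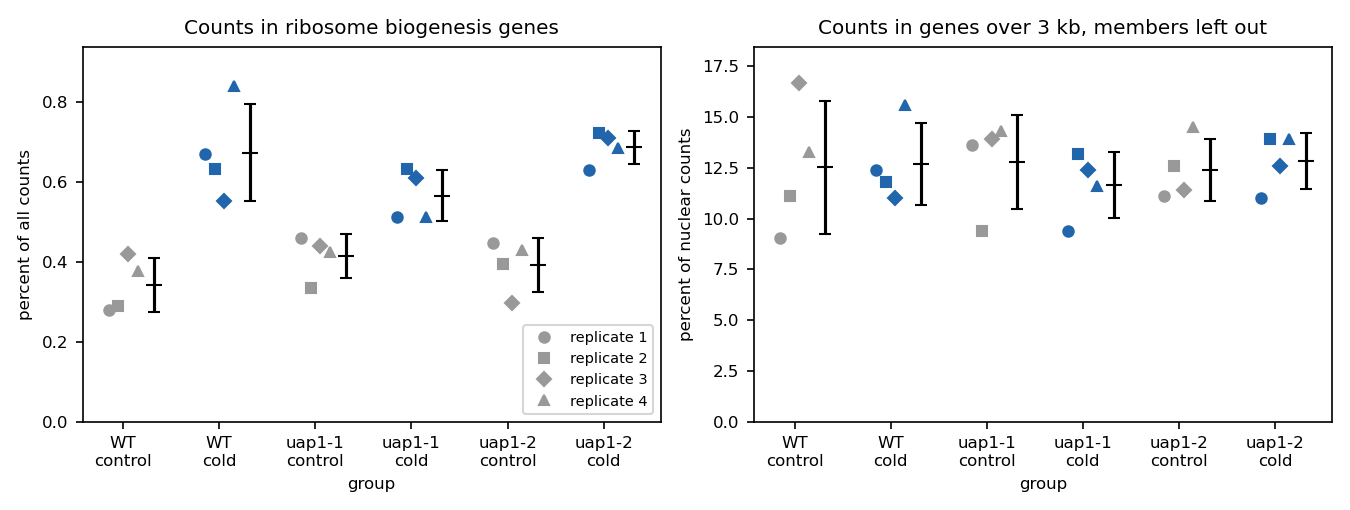
Left, percent of all counts in the 107 ribosome biogenesis genes; right, percent of nuclear counts in genes over 3 kb of exonic length, with the ribosome biogenesis genes left out. Each symbol is a library, the bar is the mean with the SD over 4 libraries, grey is control and blue is cold; cold libraries lie above control libraries of their genotype on the left, while on the right the groups overlap and 3 libraries fall under 10%.

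Some of these genes spread widely between libraries of the same group. Genes over 3 kb, with the ribosome biogenesis genes left out, held 9.03% to 16.7% of nuclear counts, and under 10% in WT control replicate 1 (9.03%), uap1-1 control replicate 2 (9.37%) and uap1-1 cold replicate 1 (9.39%). AT1G06720, the BMS1 homologue, a GTPase of the 90S particle, had 4.45, 9.37, 49.6 and 22.3 CPM in the 4 WT control libraries, and MDN1, midasin, the very large ATPase that strips factors from the 60S particle, had 7.92, 12.4, 61 and 31.2 CPM. Both were lowest in the library with the smallest share of long genes (replicate 1) and highest in the one with the largest (replicate 3, 16.7%). AT3G03920, a GAR1 homologue, ran the other way, with 136, 73.8, 48.6 and 69.4 CPM in the same libraries. The within-group SD on the log2 scale had a median of 0.28 over the 94 genes and 0.34 over all genes tested. It ran from 0.11 for CDC48C, a RIX7-type ATPase, to 1.25 for AT1G10300, a NOG1-type GTPase, and exceeded 0.5 for 20 genes. AT1G10300 has 2185 bases of exonic length, while the exoribonuclease XRN3, with 3511 bases, had an SD of 0.12. The part of gene length in this spread was not tested. Without the 3 libraries, an alternative chosen after the data had been seen, 65 rose and 4 fell in WT (25.9% and 29% of all genes), 47 and 6 in uap1-1 (26.3% and 27.5%), and 66 and 4 in uap1-2 (27.8% and 28.6%).

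The roles differed widely in their medians, which were not tested against each other. Among the tested genes, all 9 of the box C/D class rose in WT (median log2 fold change 2.01), as did 7 of 8 of UTP-A (1.97), 6 of 7 of UTP-B (1.53), 14 of 17 other 90S and 40S factors (1.6), 4 of 5 of box H/ACA (1.42) and 10 of 14 60S factors (1.06). The class of UTP-C and casein kinase 2 (CK2) had 8 of 10 higher but a median of 0.55. Of the 13 nucleases 2 rose (median 0.22), and of the 5 nuclear export genes 2 rose (median 0.34). Among all genes tested 25.8% rose in WT, with a median of -0.06. The remaining 6 tested genes carry a description unrelated to ribosome biogenesis despite their KO number, and 4 of them rose (median 0.72). Without these 6, the counts of genes that rose and fell were 62 and 3 of 88 in WT, 47 and 6 in uap1-1, and 59 and 3 in uap1-2. Beside them, 25.8% and 28.4% of all genes rose and fell in WT, 26.7% and 29.2% in uap1-1, and 26.5% and 26% in uap1-2.

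**Figure D2:**
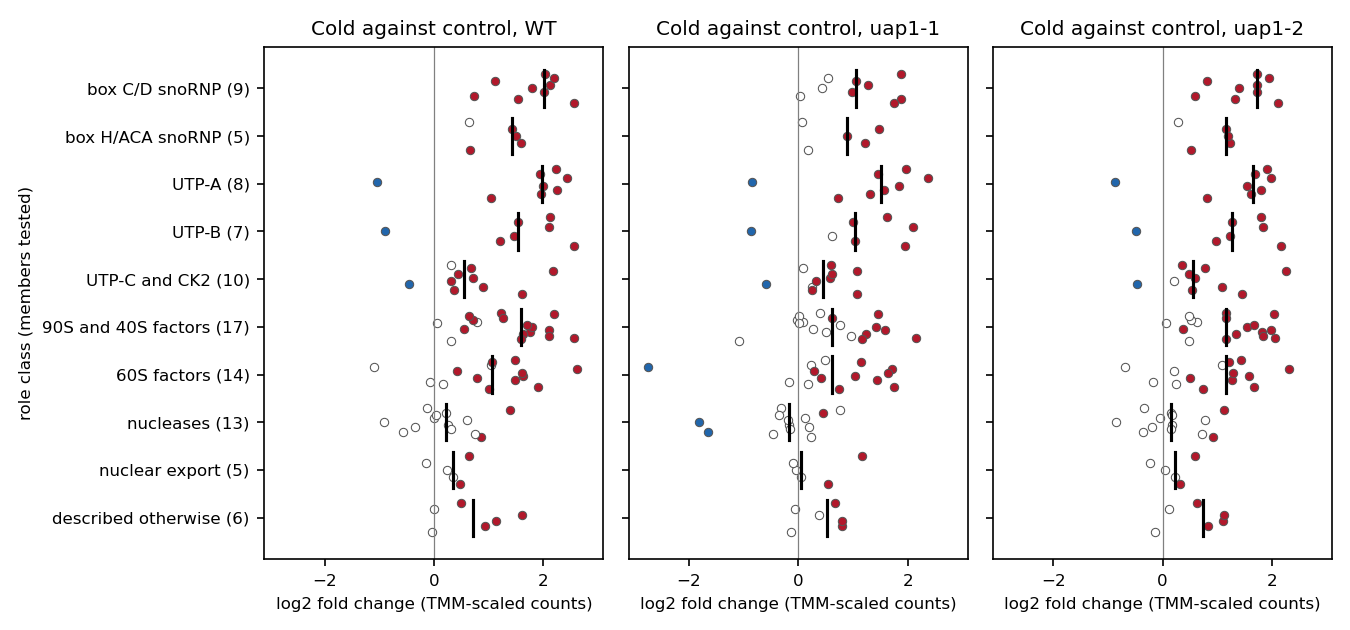
Log2 fold change of cold against control on TMM-scaled counts (x axis) for the 94 tested genes, in rows by role, with 1 panel per genotype. Filled red and blue points are genes that rose and fell at an adjusted p under 0.05, open points did not pass, and black bars are class medians, which in WT run from 2.01 for box C/D to 0.22 for nucleases; with library totals the nuclease median turns to -0.03 in uap1-2 and the nuclear export median to -0.37 in uap1-1.

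The box C/D ribonucleoproteins carry fibrillarin, the enzyme that methylates the ribose of ribosomal RNA, on a core of NOP56, NOP58 and SNU13. FIB2 (AT4G25630, chromosome 4, 13074090 to 13076432, plus strand, TAIR10) encodes a fibrillarin and is listed by the authors as a Mediator subunit, a second role assigned to plant fibrillarin. FIB2 had 33.9, 25.7, 33 and 30.4 CPM in the WT control libraries and 180, 177, 168 and 201 CPM in the WT cold libraries. Its groups lay far apart, and the log2 fold change was 2.56 (SE 0.18, adjusted p = 7.25e-11, edgeR). FIB1 (AT5G52470, chromosome 5, 21294147 to 21296819, plus strand), the other fibrillarin gene with counts, had 177, 117, 104 and 106 CPM in control and 304, 270, 294 and 222 CPM in cold libraries of WT. Its highest control library stayed below its lowest cold library, with a log2 fold change of 1.11 (SE 0.17, adjusted p = 9.31e-06, edgeR).

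The 5 promoters printed here carry the sequence side of what follows, each as the 250 bases before the annotated start, from the RefSeq annotation of TAIR10.1. FIB1 (chr5:21293897-21294146, plus strand) and FIB2 (chr4:13073840-13074089, plus strand) show a gene pair that differed in the size of its rise. AT5G20160 (chr5:6805227-6805476, minus strand) encodes a SNU13 homologue, the small RNA-binding core protein, and NUG2 (chr1:19737155-19737404, plus strand) a nucleolar GTPase of the 60S subunit; NUG2 has the most site II matches of the 107 genes. AT2G25420 (chr2:10816499-10816748, plus strand) is a gene that fell. Capitals mark the telo box (AAACCCTA, or TAGGGTTT on the other strand) and the site II element (TGGGCC, or GGCCCA on the other strand), short motifs known from promoters of plant ribosomal protein genes, and each sequence reads 5′ to 3′ towards the gene.
FIB1: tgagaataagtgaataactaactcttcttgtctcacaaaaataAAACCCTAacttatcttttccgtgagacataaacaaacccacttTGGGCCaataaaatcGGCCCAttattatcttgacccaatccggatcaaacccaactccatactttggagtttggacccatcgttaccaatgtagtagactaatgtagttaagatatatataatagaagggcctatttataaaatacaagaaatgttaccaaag
FIB2: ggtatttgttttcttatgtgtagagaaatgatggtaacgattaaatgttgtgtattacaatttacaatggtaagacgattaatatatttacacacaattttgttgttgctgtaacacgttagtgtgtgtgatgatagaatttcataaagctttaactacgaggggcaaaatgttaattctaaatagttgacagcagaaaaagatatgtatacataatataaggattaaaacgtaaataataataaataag
AT5G20160: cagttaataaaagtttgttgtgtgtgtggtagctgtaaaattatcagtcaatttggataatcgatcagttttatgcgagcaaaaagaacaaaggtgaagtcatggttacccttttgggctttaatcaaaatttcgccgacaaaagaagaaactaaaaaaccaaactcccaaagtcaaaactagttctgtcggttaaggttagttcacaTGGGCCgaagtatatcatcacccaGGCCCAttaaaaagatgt
NUG2: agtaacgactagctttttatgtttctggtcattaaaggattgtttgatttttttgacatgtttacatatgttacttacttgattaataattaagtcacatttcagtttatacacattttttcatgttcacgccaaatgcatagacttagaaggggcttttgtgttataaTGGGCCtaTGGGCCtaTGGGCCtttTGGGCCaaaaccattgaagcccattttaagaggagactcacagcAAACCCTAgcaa
AT2G25420: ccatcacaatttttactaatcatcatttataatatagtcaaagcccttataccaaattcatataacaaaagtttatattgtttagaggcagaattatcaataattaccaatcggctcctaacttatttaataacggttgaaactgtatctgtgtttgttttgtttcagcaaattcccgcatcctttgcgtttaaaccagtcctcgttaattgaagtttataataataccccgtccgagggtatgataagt

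The FIB1 window holds 1 telo box and 2 site II matches, AT5G20160 holds 2 site II matches, NUG2 holds 1 telo box and 4 site II matches, and FIB2 and AT2G25420 hold neither. Only these exact letters were searched, and variants of either motif were neither marked nor counted. The absence of a match says only that these letters are not in the window. Of all 27443 protein-coding promoters of the same length, 4.49% held a telo box and 13.7% a site II element. Of the 107 ribosome biogenesis genes 13.1% and 29% did, with both motifs at NUG2, NOP56, NOP5-1 and FIB1. Among the 66 genes that rose in WT cold, 15.2% held a telo box and 39.4% a site II element, and among the 28 tested genes that did not rise, 3.57% and 14.3%. By share the box C/D class stood highest for both motifs, with a telo box at 5 and a site II element at 6 of its 11 genes. The median WT cold log2 fold change was 1.47 for the 26 tested genes with site II alone, 1.46 for the 4 with both, 1.05 for the 7 with a telo box alone and 0.76 for the 57 with neither. FIB2, with 2.56 among the highest of all, is one of those 57.

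**Figure D3:**
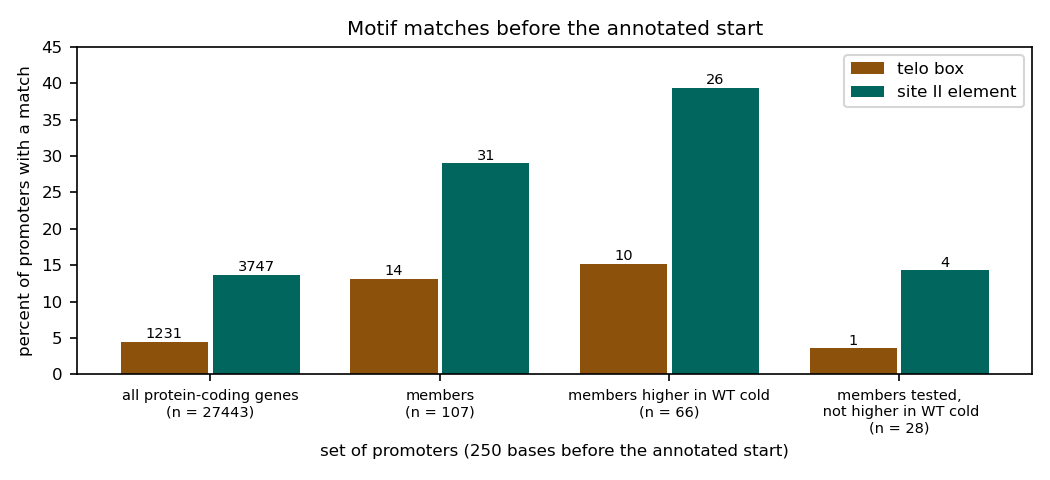
Percent of promoters, taken as 250 bases before the annotated start, that hold a telo box or a site II element on either strand, with the number of promoters above each bar. Site II elements were found in 39.4% of the genes that rose in WT cold, 14.3% of the tested genes that did not rise and 13.7% of all protein-coding genes.

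The balance of the fibrillarin pair shifted in cold, which restates their difference in size of rise from the same libraries. Per length, the ratio of FIB2 to FIB1 in FPKM was 0.197 to 0.326 over the WT control libraries and 0.588 to 0.936 over the WT cold libraries. In uap1-1 the ratio went from 0.282 to 0.488 in control to 0.549 to 0.654 in cold, and in uap1-2 from 0.227 to 0.344 to 0.668 to 0.79. The control and cold ratios did not overlap in any genotype. The exonic sequences of both genes share few 31-base stretches (1.20% of FIB1 and 1.24% of FIB2), and RefSeq places a small nucleolar RNA gene inside each of them, on the same strand. FIB3, the remaining fibrillarin entry, had 0 counts in all libraries.

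The core proteins of the same particle rose with them. AT5G20160, the SNU13 homologue shown above, had 92.8, 53.6, 37.1 and 55 CPM in WT control and 273, 270, 263 and 174 CPM in WT cold libraries, which do not overlap, with a log2 fold change of 2.04 (SE 0.27, adjusted p = 1.1e-06, edgeR). NOP56 (AT1G56110) had 52.8, 49.3, 106 and 75.8 CPM in control and 297, 263, 209 and 473 CPM in cold, again without overlap, with a log2 fold change of 2.13 (SE 0.30, adjusted p = 3.44e-06, edgeR). The NOP58 genes NOP5-2 and NOP5-1 had log2 fold changes of 2.01 (SE 0.28) and 1.8 (SE 0.38) in WT. In uap1-1 NOP5-2 rose by a log2 fold change of 0.99 (adjusted p = 0.00433, edgeR), while NOP5-1 had 0.43 (adjusted p = 0.33, edgeR). The weakly expressed NOP56 copy AT3G12860 had a log2 fold change of 2.19 (SE 0.46) in WT, and the FPKM ratio of NOP56 to it was 21.7 to 40.8 in the control and 18.8 to 34.4 in the cold libraries of WT. The other SNU13 copies AT4G22380 and AT4G12600 had log2 fold changes of 1.53 and 0.74 in WT. NOP5-3, the last NOP58 entry, had 0 counts.

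The box H/ACA particle turns uridines of ribosomal RNA into pseudouridines. NAP57, its catalytic subunit (AT3G57150, chromosome 3, 21153815 to 21156075, minus strand), had 125, 73.5, 91.1 and 97.4 CPM in WT control and 322, 235, 277 and 336 CPM in WT cold libraries. The cold libraries all lay higher, with a log2 fold change of 1.6 (SE 0.17, adjusted p = 7.3e-08, edgeR). AT5G08180, the NHP2 homologue, rose by 1.5 (SE 0.17, adjusted p = 1.79e-07), AT3G03920, a GAR1 homologue, by 1.42 (SE 0.28, adjusted p = 0.00015), and the small subunit NOP10 by 0.66 (SE 0.17, adjusted p = 0.00223, all edgeR). The second GAR1 gene, AT5G18180, is scarce at 0.528 to 1.29 CPM in WT control and had a log2 fold change of 0.64 that did not pass (adjusted p = 0.193, edgeR).

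UTP-A binds the precursor while it is still being made and UTP-B joins it at the U3 site. SWA1, the UTP15 homologue first known for its role in female gametophyte divisions (AT2G47990, chromosome 2, 19636867 to 19638678, minus strand), had 18.6, 15.3, 14.1 and 20.2 CPM in WT control and 93.1, 86.8, 85.5 and 101 CPM in WT cold libraries. The lowest cold library lay several times above the highest control library, and the log2 fold change was 2.43 (SE 0.16, adjusted p = 3.25e-11, edgeR). AT1G27470, a UTP4 homologue, had 29.5, 23.9, 29 and 26.3 CPM in control and 121, 104, 95.1 and 110 CPM in cold libraries of WT. Its replicates lay close together and its log2 fold change of 1.99 had a small error (SE 0.13, adjusted p = 1.38e-11, edgeR). In uap1-1 these genes rose by 2.38 (SWA1) and 1.85 (AT1G27470), and in uap1-2 by 1.98 and 1.55. SWA1 overlaps annotated genes on the opposite strand, and whether reads were assigned by strand is not stated, so reads of such neighbours cannot be separated.

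Among the genes annotated to each of these complexes 1 moved against the rest, and it shares its KO number with a gene that rose. PWP2 (AT1G15440), the UTP-B subunit UTP1, had 39, 23.2, 32.2 and 28.2 CPM in WT control and 146, 114, 136 and 130 CPM in WT cold libraries, a log2 fold change of 2.10 (SE 0.16, adjusted p = 2.6e-10, edgeR). AT2G25420, placed in the same KO number K14558 and described as a WD-40 repeat protein, had 9.42, 10.8, 9.8 and 9.54 CPM in control and 5.33, 4.36, 6.14 and 5.37 CPM in cold. Here every cold library lay below every control library, and the log2 fold change was -0.90 (SE 0.19, adjusted p = 0.000283, edgeR). The FPKM ratio of PWP2 to AT2G25420 was 2.09 to 4.01 in the control and 21.5 to 26.6 in the cold libraries of WT, and the 2 genes share no 31-base stretch. AT2G25420 also fell in uap1-1 (-0.86, adjusted p = 0.000477) and in uap1-2 (-0.49, adjusted p = 0.0277, edgeR).

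The same contrast appeared for UTP17. AT2G18900 had 21.6, 16.1, 29.3 and 23.9 CPM in WT control and 106, 88.8, 96.3 and 139 CPM in WT cold libraries, a log2 fold change of 2.24 (SE 0.17, adjusted p = 2.11e-10, edgeR). AT3G26480, with the same KO number K14552, had 1.91, 1.06, 3.11 and 2.08 CPM in control and 0.566, 1.34, 0.835 and 1.19 CPM in cold. These groups overlap at the control library of 1.06, and the log2 fold change of -1.05 (SE 0.36, adjusted p = 0.0165, edgeR) did not pass without WT control replicate 3 (-0.77, adjusted p = 0.0818) or WT cold replicate 1 (-0.86, adjusted p = 0.0633). AT3G26480 overlaps AT3G26470, an RPW8-domain gene annotated with the same KO number, by 370 bases on the opposite strand, and AT3G26470 rose in WT by a log2 fold change of 1.13 (SE 0.32, adjusted p = 0.00447, edgeR).

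**Figure D4:**
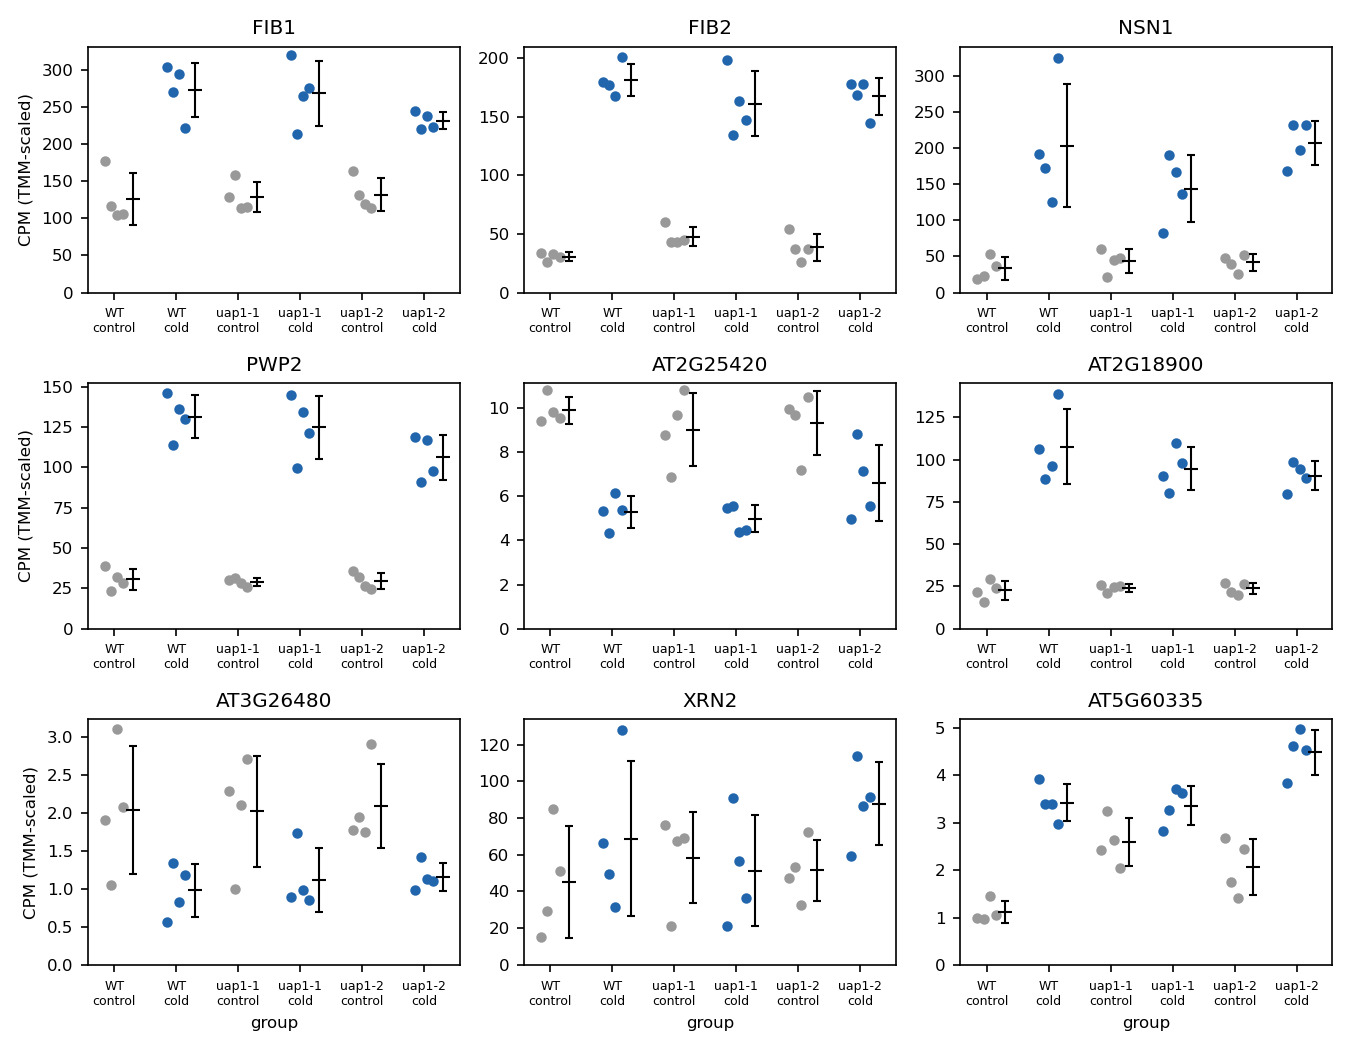
TMM-scaled CPM (y axis, from 0) in each of the 24 libraries by group for 9 genes, with the mean and SD over 4 libraries beside the points; grey is control and blue is cold. FIB2, NSN1, PWP2 and AT2G18900 are higher in every cold library of their genotype, AT2G25420 is lower in the WT and uap1-1 cold libraries, XRN2 overlaps throughout, and AT5G60335 is lowest in WT control, at 0.968 to 1.45 CPM.

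Across the pathway, 24 KO numbers had at least 2 tested genes, 61 genes in all. Genes of 1 number need not be copies. K14552, K06943, K14569, K11883 and K18532 hold genes whose description is unrelated to ribosome biogenesis, and the last 3 of these each pair such a gene with 1 other. In WT cold all genes of the number rose for 9 of the 24, some genes rose and the others did not pass for 10, no gene passed for 2, and genes passed in both directions for 3. The numbers with both directions were PWP2's K14558, UTP17's K14552 and the CK2 catalytic subunits of K03097. The smallest spreads between genes of 1 number were 0.02 on the log2 scale for the UTP5 homologues AT1G15420 and AT5G11240 and 0.06 for NOP56 and AT3G12860. The widest were 3.30 for K14552 and 3.00 for K14558.

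The other genes annotated to UTP-B moved one way. AT3G21540, the UTP12 homologue, had 7.04, 10.6, 21.9 and 14.7 CPM in WT control and 84.3, 69.1, 55.7 and 113 CPM in WT cold, without overlap, with a log2 fold change of 2.57 (SE 0.27, adjusted p = 5.34e-08, edgeR). AT4G04940, the UTP21 homologue, rose by 2.13 (SE 0.17, adjusted p = 5.06e-10, edgeR). TOZ, the UTP13 homologue needed for the planes of embryo division, rose by 1.46 in WT (SE 0.32, adjusted p = 0.000482) and had 0.61 in uap1-1 (adjusted p = 0.103, edgeR).

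UTP-C joins the kinase CK2, which phosphorylates many proteins besides assembly factors, to UTP22 and RRP7. Both dedicated subunits rose. AT5G38720, the RRP7 homologue, had 5.95, 6.34, 14.7 and 10.9 CPM in WT control and 32.4, 39.4, 22.2 and 78.4 CPM in WT cold libraries. Its cold libraries all lay higher, with a log2 fold change of 2.18 (SE 0.38, adjusted p = 3.93e-05, edgeR), and AT1G63810, the UTP22 homologue, rose by 1.61 (SE 0.27, adjusted p = 2.19e-05, edgeR). The 8 CK2 subunit genes had a median log2 fold change of 0.41 in WT, with 6 higher and 1 lower; with library totals the median was 0.20 with 1 higher and 1 lower, and in uap1-1 it turned from 0.29 to -0.13. CKA4, the chloroplast catalytic subunit, rose by 0.71 (SE 0.10, adjusted p = 4.64e-06, edgeR) in WT. The changes of CKA3 (0.90), CKB1 (0.67) and CKB3 (0.32) in WT did not pass with library totals or with at least 1 library left out. CKA1, a nuclear catalytic subunit, had 69, 69.2, 49.2 and 54.2 CPM in WT control and 49, 41.3, 46.3 and 40 CPM in WT cold, with a log2 fold change of -0.45 (SE 0.14, adjusted p = 0.00719, edgeR). Its groups lay close but did not overlap, it fell in the mutants too (-0.59 and -0.46), and it overlaps a gene on the opposite strand by 417 bases. The FPKM ratio of the catalytic genes CKA2 to CKA1 was 0.827 to 1.52 in the control and 1.66 to 2.23 in the cold libraries of WT.

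Among the other 90S and 40S factors, AT5G22100, the homologue of RCL1, a cyclase-like protein of early cleavage, had 19.9, 16.4, 14.7 and 17.5 CPM in WT control and 118, 99.5, 110 and 79 CPM in WT cold libraries. The groups lay far apart, with a log2 fold change of 2.57 (SE 0.20, adjusted p = 2.71e-10, edgeR). The 3 proteins that bind each other on U3 rose: MPP10 by 2.10 (SE 0.45, adjusted p = 0.000407), the IMP3 homologue AT5G15750 by 2.19 (SE 0.18, adjusted p = 8.47e-10) and IMP4 by 1.63 (SE 0.13, adjusted p = 4.05e-10, edgeR). NOB1, the endonuclease that makes the final cut of the 18S RNA, had 28.3, 30.8, 34.6 and 33.8 CPM in control and 100, 85.2, 83.1 and 118 CPM in cold libraries of WT. Its log2 fold change was 1.6 (SE 0.13, adjusted p = 8.15e-10, edgeR). The RNA cytidine acetyltransferases AT3G57940 and AT1G10490 rose by 2.10 and 1.79. AAK6, an adenylate kinase that acts late on the small subunit, had 0.06 (SE 0.20, adjusted p = 0.827, edgeR). The RIO1 kinase genes AT2G24990 and AT5G37350 share 20.2% and 18.9% of their 31-base stretches with other genes, so their counts are less certain than the rest. The class gave 14 of 17 genes higher in WT, 7 in uap1-1 and 12 in uap1-2, beside 25.8%, 26.7% and 26.5% of all genes. None of its genes passed the test of a difference in cold response between a mutant and WT.

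The 60S class held the highest WT fold change of all. NSN1, a nucleostemin-like GTPase of the nucleolus (AT3G07050, chromosome 3, 2229355 to 2232361, minus strand), had 19, 23.5, 54.1 and 36.8 CPM in WT control and 192, 173, 125 and 325 CPM in WT cold libraries. Its libraries spread widely within groups but did not overlap between them, and the log2 fold change was 2.61 (SE 0.36, adjusted p = 2.19e-06, edgeR). LSG1-2, a GTPase that frees the export adaptor in the cytoplasm, had 17.2, 13.6, 17.9 and 18.5 CPM in control and 61, 58.8, 53.5 and 78.8 CPM in cold libraries of WT, with a log2 fold change of 1.9 (SE 0.14, adjusted p = 1.31e-10, edgeR). NMD3, that adaptor, rose by 1.48 (SE 0.11, adjusted p = 1.37e-10), and EIF6-2, the factor that keeps the subunits from joining too early, by 1.61 (SE 0.14, adjusted p = 1.81e-09, edgeR). NUG2, whose promoter is shown above, had 72.2, 75.3, 81.8 and 84.1 CPM in WT control and 162, 149, 139 and 178 CPM in WT cold, a log2 fold change of 1.00 (SE 0.11, adjusted p = 8.27e-08, edgeR). The EFL1 homologue AT3G22980, a GTPase that removes eIF6, had 0.17 (SE 0.13, adjusted p = 0.309, edgeR). AT1G10300, scarce at 0.31 to 2.51 CPM in WT control, had -1.10 in WT (SE 0.80, adjusted p = 0.255) and fell by 2.74 on the log2 scale in uap1-1 (SE 0.82, adjusted p = 0.00693, edgeR).

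Nucleases and export genes stood nearest to the genome as a whole. RPP30, a subunit of RNase P and RNase MRP, had 2.48, 4.05, 8.56 and 6.48 CPM in WT control and 12.3, 13.1, 8.3 and 23.5 CPM in WT cold. These overlap only where the cold library of 8.3 lies under the control library of 8.56, and the log2 fold change was 1.40 (SE 0.36, adjusted p = 0.00197, edgeR). The other 4 tested subunits of these enzymes, POP1, POP4, POP5 and the Alba protein AT3G07030, ran from -0.34 to 0.32 and did not pass. AT5G25800, a REX1-type exonuclease, rose in WT (0.87, SE 0.31, adjusted p = 0.0203, edgeR), but did not pass without WT control replicate 1 or 2 or WT cold replicate 4 (0.64 to 0.75). Nor did it pass with library totals (0.63, adjusted p = 0.162, edgeR) or with limma on log2(FPKM + 1) (0.57, adjusted p = 0.126). The exoribonucleases XRN2, XRN3 and XRN4 had 0.61, 0.22 and 0.01 in WT and did not pass in edgeR. XRN3 (adjusted p = 0.0732, edgeR) passed with DESeq2 (0.25, adjusted p = 0.0247), with DESeq2's size factors in edgeR (adjusted p = 0.0475), with the share of long genes as a covariate (adjusted p = 0.0432), without WT control replicate 3 (adjusted p = 0.0473) and without WT cold replicate 2 (adjusted p = 0.0341). XRN2 had 15.4, 29.2, 84.9 and 51.2 CPM in control and 66.3, 49.6, 31.4 and 128 CPM in cold. SDN1 and SDN2, small RNA degrading nucleases annotated into the pathway, fell in uap1-1 (-1.65 and -1.81, adjusted p = 0.000601 and 0.00313) and had -0.56 and -0.92 in WT (adjusted p = 0.191 and 0.106, edgeR). With library totals the nuclease median was 0.01 in WT and turned to -0.03 in uap1-2.

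RAN is the GTPase that drives transport through the nuclear pore and XPO1 the exportin that carries both subunits out. RAN1 (AT5G20010) had 189, 145, 138 and 153 CPM in WT control and 243, 222, 239 and 268 CPM in WT cold libraries, without overlap, with a log2 fold change of 0.64 (SE 0.14, adjusted p = 0.00052, edgeR). RAN2, its neighbour on chromosome 5, rose by 0.47 (SE 0.12, adjusted p = 0.00256), while RAN3 had -0.15 (SE 0.17, adjusted p = 0.46, edgeR) and fell by 0.33 with library totals (adjusted p = 0.0192). RAN1 and RAN2 share 4.89% and 6.29% of their 31-base stretches. Per length these were the most abundant genes of the pathway in WT control, with mean FPKM of 110 ± 8.45 for RAN3, 107 ± 12.7 for RAN2 and 106 ± 8.24 for RAN1 (SD, n = 4), which do not differ beyond their spread. The FPKM ratio of RAN1 to RAN3 was 0.838 to 1.07 in the control and 1.43 to 2.27 in the cold libraries of WT. XPO1A had 0.34 (adjusted p = 0.0877, edgeR) and passed with the share of long genes as a covariate (adjusted p = 0.00362), without WT control replicate 3 (adjusted p = 0.0211) and without WT cold replicate 3 (adjusted p = 0.0411). XPO1B had 0.24 (adjusted p = 0.52, edgeR), which turned to 0 with library totals and to -0.06 without WT cold replicate 4.

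The 13 genes that were not tested held few or no counts. They were FIB3, NOP5-3, EIF6-1, RAN4, SDN4, AT5G36980 (a UTP14 homologue), AT3G23860 (a NOG1 entry) and 6 genes whose descriptions do not name ribosome biogenesis: AT1G28135, AT1G64540, AT2G07706, AT2G37910, AT4G32580 and AT5G06043.

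Between genotypes no ribosome biogenesis gene passed the edgeR test. Under control conditions 0 of 94 passed in uap1-1 against WT, where 0.00467% of all genes tested passed, and 9 (9.57%) had an unadjusted p under 0.05, beside 9.15% of all genes. In uap1-2 against WT 0 passed (0% of all genes) and 3 (3.19%) had an unadjusted p under 0.05, beside 5.38% of all genes. In the cold 0 passed in uap1-1 (0% of all genes) and in uap1-2 (0% of all genes), with 2 (2.13%) and 4 (4.26%) genes at an unadjusted p under 0.05, beside 2.71% and 4.73% of all genes. DESeq2 and limma on log2(FPKM + 1) each called 1 gene, AT5G60335, in uap1-1 against WT under control conditions, where they called 0.163% and 0.173% of all genes, and none of the 94 in the other 3 comparisons, where DESeq2 called 0.0607% of all genes in uap1-2 under control conditions. The median log2 difference of the 94 genes was 0.18 in uap1-1 and 0.17 in uap1-2 under control conditions, and -0.19 and 0.01 in the cold, where that of all genes was between -0.03 and 0.02. The last value turned to -0.03 with DESeq2's size factors. With the share of long genes as a covariate in edgeR, chosen after the data were seen, the counts at an unadjusted p under 0.05 differed. Under control conditions they were 31 (33%) in uap1-1 and 32 (34%) in uap1-2, beside 15.6% and 12.5% of all genes. In the cold they were 7 (7.45%) and 10 (10.6%), beside 3.7% and 11%. That fit called 1 gene, AT5G60335, in uap1-1 under control conditions, where 0.0467% of all genes were called. The comparisons share the WT libraries.

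AT5G60335 is annotated as a hydroxyacyl-thioester dehydratase and carries the KO number of its neighbour AAK6. It had 0.983, 0.968, 1.45 and 1.06 CPM in WT control, 2.42, 3.24, 2.64 and 2.04 CPM in uap1-1 control, and 2.67, 1.74, 1.42 and 2.44 CPM in uap1-2 control. All uap1-1 libraries lay above all WT libraries, while uap1-2 overlapped WT. The log2 difference of uap1-1 from WT was 1.20 (SE 0.23, adjusted p = 0.114, edgeR), 1.21 with DESeq2 (adjusted p = 0.00244) and 0.86 with limma (adjusted p = 0.0262). In uap1-2 it was 0.88 (SE 0.23, adjusted p = 0.554, edgeR). FIB2 had 60.5, 43.2, 42.8 and 44.9 CPM in uap1-1 control, all above the WT control libraries, with a log2 difference of 0.64 (SE 0.17, adjusted p = 0.333, edgeR). RAN1 lay the other way, with 107, 144, 122 and 118 CPM in uap1-1 control against 138 to 189 in WT and a log2 difference of -0.35 (SE 0.14, adjusted p = 0.453, edgeR).

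The difference of the cold responses was tested directly. For uap1-1 minus WT 0 of 94 genes passed in edgeR, as in DESeq2 and limma (0% of all genes in edgeR), and 20 (21.3%) had an unadjusted p under 0.05, beside 8.6% of all genes. For uap1-2 minus WT 0 passed in each tool (0% of all genes in edgeR) and 2 (2.13%) had an unadjusted p under 0.05, beside 1.73% of all genes. The median difference was -0.41 for uap1-1 and -0.15 for uap1-2, with all genes at 0.02 and 0.04. The difference was positive for 18 and 23 of the 94 genes, and that share over all genes is not given here. Both differences use the same WT libraries. Per library, the median log2 level of the 94 genes relative to WT control was 0.73 to 1.35 in WT cold and 0.7 to 1.11 in uap1-1 cold. Under control conditions it was -0.23 to 0.22 in WT and -0.05 to 0.29 in uap1-1, so these groups overlapped. The largest differences by p were -1.23 for AT5G60335 (SE 0.31, adjusted p = 0.481), -0.81 for FIB2 (SE 0.24, adjusted p = 0.481) and -0.73 for AT5G15750 (SE 0.25, adjusted p = 0.481, edgeR), all in uap1-1. RAN1 had a positive difference of 0.53 (SE 0.20, adjusted p = 0.485, edgeR). Without the 3 libraries low in long genes, of which 1 is a uap1-1 cold and 1 a uap1-1 control library, the median was -0.34 with 10 genes (10.6%) at an unadjusted p under 0.05, beside 5.91% of all genes. With the share of long genes as a covariate it was -0.35 with 39 (41.5%), beside 12.5% of all genes. The part of these libraries in the difference was not tested beyond these values.

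**Figure D5:**
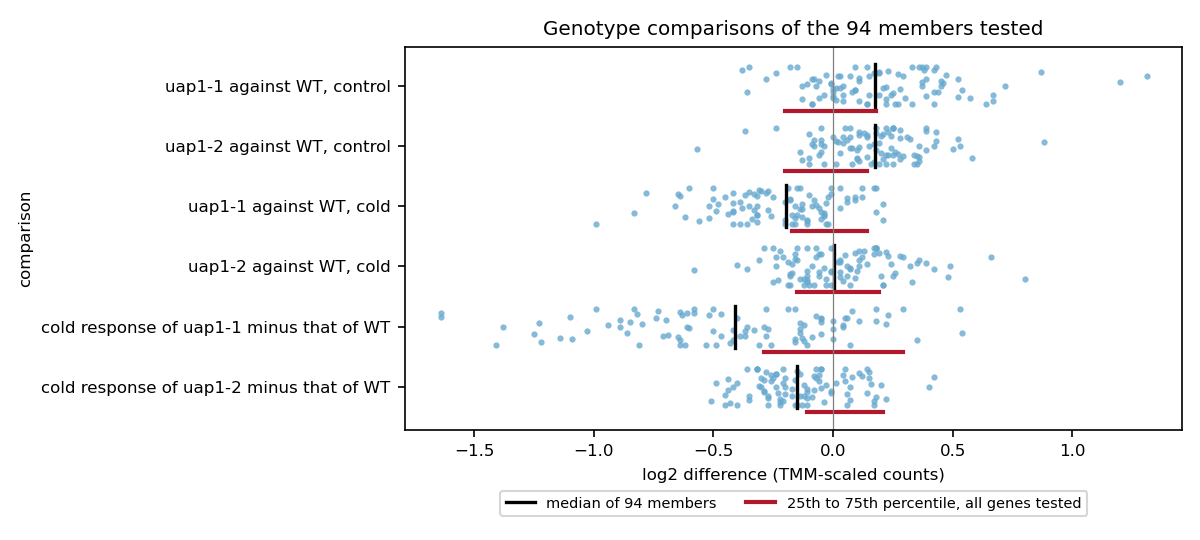
Log2 difference on TMM-scaled counts (x axis) of the 94 tested genes in the 4 comparisons of a mutant with WT and the 2 differences of cold responses, 1 point per gene. Black bars are medians of the 94 genes, from 0.18 to -0.41, and red lines span the 25th to 75th percentile of all genes tested; no gene passed the adjusted test, and the median of uap1-2 against WT in the cold turns from 0.01 to -0.03 with DESeq2's size factors.

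Assembly factors that the KEGG annotation leaves out, with related genes such as the kinase TOR and subunits of RNA polymerase I, were read beside the listed genes. This list too was chosen with earlier results of these data known. Of 25 such genes 22 rose in WT, 21 in uap1-1 and 22 in uap1-2, and none fell. Of all genes 25.8%, 26.7% and 26.5% rose and 28.4%, 29.2% and 26% fell. The median log2 fold changes of the 25 genes were 1.36, 1.13 and 1.19, beside -0.06, -0.07 and -0.01 for all genes tested. Among them NUC1, the main nucleolin, rose by 1.66 in WT (SE 0.15, adjusted p = 2.73e-09), PES, the pescadillo homologue, by 1.72 (SE 0.13, adjusted p = 2.88e-10) and NRPA2, a subunit of RNA polymerase I, by 1.67 (SE 0.18, adjusted p = 5.17e-08, edgeR). The RNA helicases MTR4 and HEN2 and the kinase TOR had 0.17, 0.02 and 0.19 in WT and passed in no genotype. Of the 350 nuclear genes annotated to the ribosome itself, mostly ribosomal proteins, 315 were tested, and 89 (28.3%) rose and 31 (9.84%) fell in WT, beside 25.8% and 28.4% of all genes. In uap1-1 64 (20.3%) rose and 23 (7.3%) fell, beside 26.7% and 29.2%, and in uap1-2 54 (17.1%) and 39 (12.4%), beside 26.5% and 26%. Their medians were 0.25, 0.21 and 0.11, and with library totals they were 0.07, -0.19 and -0.09. Their distance above the median of all genes was 0.31, 0.29 and 0.12 with TMM and 0.34, 0.31 and 0.11 with library totals.

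Markers of tissue make-up were read beside these results. Of all genes tested, 25.8% rose and 28.4% fell in WT, 26.7% and 29.2% in uap1-1, and 26.5% and 26% in uap1-2. Of 9 tested genes of dividing cells none rose in any genotype, and 1 fell in WT (CYCD3;1), 4 in uap1-1 and 2 in uap1-2. WUS, a stem cell gene, was near 0 and was not tested. Their summed level was 106 to 162 CPM in the control and 86.8 to 135 in the cold libraries of WT, 140 to 169 and 75.8 to 120 in uap1-1, and 92.4 to 214 and 95.3 to 152 in uap1-2. Of 10 root genes 3 rose in WT, with a summed level of 57.3 to 98.8 CPM in control and 92 to 106 in cold; 1 rose and 2 fell in uap1-1 (67.2 to 87.8 and 75 to 111 CPM), and 3 rose in uap1-2 (54.3 to 73.8 and 70.2 to 94.6 CPM). Of 5 leaf genes 2 fell in WT (32200 to 77400 and 27100 to 44000 CPM), none passed in uap1-1 (30600 to 50500 and 33700 to 56800 CPM) and 3 fell in uap1-2 (37100 to 53300 and 24000 to 33600 CPM). The part of tissue make-up in the rise of the ribosome biogenesis genes was not tested.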

How the data were processed

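RNA from 24 libraries in 6 groups of 4 was analysed. The authors deposited a table with counts and FPKM per gene and library; per the submitters' processing notes the tools listed are HISAT2 2.2.1, HTSeq 0.6.1, StringTie 1.3.3b and SAMtools 0.1.19 with cutadapt 1.9.1, FastQC 0.10.1 and bcl2fastq 2.20.0.422, DESeq2 1.26.0 is also listed, and the build was TAIR10. The deposited counts are raw whole numbers per gene, and the deposited FPKM values are per length and depth; whether counting used strand is not stated. Groups came from the sample labels.

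Counts were tested with edgeR 4.0.16 in R 4.3.3 (filterByExpr, minimum count 10, total 15, TMM, 1 quasi-likelihood fit over all 6 groups, no block, threshold 0.05), after checks on simulated data. Organelle genes stayed in the fit and the library sizes, and 1 mitochondrial gene with the pathway annotation was left out of the set. DESeq2 1.42.0, limma 3.58.1 on log2(FPKM + 1), library totals, no filter, a replicate block and leaving out each library were alternatives. The groups share replicate numbers, but the labels tie them to no shared material, and in 0 of 11 pairs of groups did all same-numbered libraries deviate together (correlation over 0.1). The ribosome biogenesis genes and all lists were chosen with earlier results of these data known. Genes named were, per role, up to 3 with the smallest p in WT cold and any that moved against their role, the 6 with the smallest p in each genotype comparison, and copies of one gene; further ones were chosen after their values were seen. Precision is set by the 4 libraries per group and by library totals of 19289385 to 25501547 counts. Promoter windows were read from RefSeq TAIR10.1, where all 107 genes had the start and end of the deposited table.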

Additional observations from a re-analysis of the deposited data

Results flagged for a closer look

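The check covered 336 groups of 4 libraries, of which 330 are the 6 groups of 55 named ribosome biogenesis genes and 6 are the share of counts summed over all 107. In 16 of them, each for a single gene, 1 library stood apart from the other 3 by a gap over 0.829 of the group's range (Dixon's 95% critical value). Chance sets apart about 1 group in 20. Values are TMM-scaled CPM. RPP30 was low in uap1-1 control replicate 2, at 4.14 CPM against 7.84 to 8.18 in the others. LSG1-2 was low in uap1-1 control replicate 2, at 13.3 CPM against 18.2 to 19 in the others. NMD3 was high in uap1-1 control replicate 2, at 114 CPM against 94.1 to 97.2 in the others. FIB2 was high in uap1-1 control replicate 1, at 60.5 CPM against 42.8 to 44.9 in the others. AT1G63810 was low in uap1-1 control replicate 2, at 14.4 CPM against 22.5 to 23.2 in the others. AT3G51270 was low in uap1-1 control replicate 2, at 40.7 CPM against 53.8 to 55.5 in the others. RAN3 was high in uap1-1 control replicate 2, at 159 CPM against 109 to 113 in the others. NOB1 was high in uap1-2 cold replicate 3, at 88 CPM against 78 to 79.5 in the others. AT5G15750 was low in uap1-2 cold replicate 4, at 73 CPM against 79.5 to 80.8 in the others. AT4G28200 was low in uap1-2 cold replicate 2, at 82.7 CPM against 95.9 to 98.1 in the others. AT3G26480 was high in uap1-1 cold replicate 2, at 1.74 CPM against 0.861 to 0.984 in the others. AT3G26470 was high in WT cold replicate 2, at 29.1 CPM against 16.9 to 18.9 in the others. AT5G20160 was low in WT cold replicate 4, at 174 CPM against 263 to 273 in the others. AT3G12860 was high in WT cold replicate 4, at 25 CPM against 6.04 to 8.92 in the others. AT3G57000 was high in WT control replicate 3, at 25.3 CPM against 19.7 to 20.3 in the others. CKB2 was low in WT control replicate 3, at 50.6 CPM against 62 to 63.3 in the others. Of the 16, 6 fell on uap1-1 control replicate 2, a library in which long genes held 9.37% of nuclear counts.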

How the results depend on the processing

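Of 1473 alternative values for named genes 1426 kept their direction and side of the threshold. XPO1B in WT cold turned to 0 with library totals and to -0.06 without WT cold replicate 4 (-0.06 to 0.54 over the libraries left out in turn). With library totals the median of all genes shifted to -0.27, -0.50 and -0.20 in WT, uap1-1 and uap1-2, and the share of called genes that were higher went from 47.6%, 47.8% and 50.5% to 35.4%, 25.8% and 37.5%. The ribosome biogenesis genes then gave 5 lower with a median of 0.80 in WT, 31 higher and 11 lower with a median of 0.17 in uap1-1, and 5 lower with a median of 0.75 in uap1-2. With limma on log2(FPKM + 1) there were 5 lower with a median of 0.78 in WT, 31 higher and 11 lower with a median of 0.14 in uap1-1, and 5 lower with a median of 0.67 in uap1-2. For uap1-1 against WT under control conditions DESeq2, limma and the share of long genes as a covariate, an alternative chosen after seeing the data, each gave 1 called gene, beside 0.163%, 0.173% and 0.0467% of all genes. The cause of these shifts was not tested. With that covariate 72 rose and 4 fell in WT (30.7% and 32.8% of all genes), 62 and 7 in uap1-1 (30.5% and 33.5%), and 68 and 4 in uap1-2 (31% and 30.7%). Leaving out 1 library at a time gave 59 to 68 higher and 2 to 4 lower in WT (medians 0.91 to 1.13), 45 to 49 and 5 to 7 in uap1-1 (0.51 to 0.68), and 57 to 62 and 1 to 3 in uap1-2 (0.88 to 1.04), and 0 called in every genotype comparison and difference of responses. With the replicate block the counts of higher and lower genes were 66 and 3 in WT, 50 and 5 in uap1-1, and 63 and 2 in uap1-2, with 0 called between genotypes; the libraries share only a number.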
